A study of Homo sapiens with 18 samples.

Results

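The UGT2B genes UGT2B4, UGT2B7, UGT2B10, UGT2B11, UGT2B15, UGT2B17 and UGT2B28 encode enzymes that attach glucuronic acid to steroids and lie together on chromosome 4. Binding of FOXA1 and TLE3 at these 7 genes, of 19974 protein-coding genes on chromosomes 1 to 22 and X, was read from 12 lists of ChIP-seq peaks, ChIP-seq being chromatin immunoprecipitation followed by sequencing. A peak was taken when its centre lay in the hg38 body of a member gene or within 50 kb of it. The windows of neighbouring genes overlap, and together they form 4 stretches of 839 kb in all. Of 1134194 peaks on these chromosomes, 509 lay in the windows. The rule uses gene names and no measured value, though the genes were picked with earlier results of these data known.

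UDP-glucuronosyltransferases move glucuronic acid from UDP-glucuronic acid to lipid-soluble molecules, which makes steroids inactive at their receptors and easier to excrete. UGT2B15 and UGT2B17 are the enzymes best known for androgens, and in hormone-responsive tumour cells they limit the local level of dihydrotestosterone and testosterone. FOXA1 is a forkhead pioneer factor that opens chromatin at enhancers used by the androgen and estrogen receptors, and TLE3 is a Groucho family corepressor without DNA binding of its own that is brought to chromatin by partner factors.

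The study asked where TLE3 binds in luminal breast cancer and how often FOXA1 is bound at the same places. The groups were MDA-MB-453, SKBR3 and T47D cells, 3 established breast cancer lines, each immunoprecipitated for FOXA1 with a Diagenode antibody or for TLE3 with a Proteintech antibody, and no treatment or genetic change is named in the labels. MDA-MB-453 lacks estrogen receptor and carries androgen receptor, SKBR3 has amplified ERBB2, and T47D carries estrogen receptor. Cells for TLE3 were fixed with an additional crosslinker ahead of formaldehyde, so a difference between the factors cannot be told apart from a difference between antibodies or fixation. Each of the 6 groups had 2 replicates that the labels call biological without saying how they were grown, so p-values measure only the spread between these libraries. The 6 input samples were not analysed here.

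FOXA1 lists held 107598 to 188029 peaks and TLE3 lists 21149 to 94363. The lists hold no read counts, so sequencing depth is unknown. The score of each peak is the authors' own value of a quantity that no header names. It is used here as a percentile, the rank of the score in its own list in percent, with ties given their mean rank. Apart from that it only orders the peaks where lists were cut in alternative settings. Percentiles from lists of different lengths show no change in binding. A site is a merged region in which both replicates of a group have a peak. The library labelled SKBR3 TLE3 replicate 2 stood apart. It had the longest TLE3 list, and none of its 22 window peaks overlapped any of the 8 of replicate 1. On chromosomes 1 to 22 and X the replicates did share 6976 sites, from lists of 94363 and 21149 peaks. Only 27.3% of the 22 window peaks overlapped a SKBR3 FOXA1 site, against 100% of the 8. Over all peaks these shares were 21.7% and 93.5%. The SKBR3 TLE3 replicates are therefore shown separately, and results that use them are given with and without replicate 2.

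The promoters of 4 of the 7 genes, UGT2B15, UGT2B10, UGT2B7 and UGT2B11, matched a RefSeq sequence table of GRCh38.p14. UGT2B17, UGT2B28 and UGT2B4 are named only. The 250 bases before the annotated start of each matched gene are printed because the strongest FOXA1 and TLE3 peaks of the cluster lay over several of them. They run 5′ to 3′ on the strand of the gene, at chr4:68670653-68670902 (minus strand) for UGT2B15, chr4:68815744-68815993 (plus) for UGT2B10, chr4:69096224-69096473 (plus) for UGT2B7 and chr4:69214749-69214998 (minus) for UGT2B11. Capitals mark GTAAACA, a motif of forkhead factors, its variant GTAAATA and the further variant ATAAACA, each on either strand.
UGT2B15: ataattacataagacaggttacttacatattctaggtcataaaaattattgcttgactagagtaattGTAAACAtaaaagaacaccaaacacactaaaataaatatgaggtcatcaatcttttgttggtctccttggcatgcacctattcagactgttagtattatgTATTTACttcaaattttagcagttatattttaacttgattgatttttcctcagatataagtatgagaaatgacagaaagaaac
UGT2B10: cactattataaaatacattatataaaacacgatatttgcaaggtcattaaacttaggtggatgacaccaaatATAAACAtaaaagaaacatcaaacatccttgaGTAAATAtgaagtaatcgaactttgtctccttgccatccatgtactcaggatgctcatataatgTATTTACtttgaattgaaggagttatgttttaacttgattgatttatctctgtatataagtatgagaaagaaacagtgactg
UGT2B7: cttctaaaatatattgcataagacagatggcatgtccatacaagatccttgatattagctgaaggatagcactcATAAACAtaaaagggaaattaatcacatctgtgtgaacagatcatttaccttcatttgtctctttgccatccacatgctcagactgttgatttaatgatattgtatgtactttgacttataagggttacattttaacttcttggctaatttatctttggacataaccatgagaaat
UGT2B11: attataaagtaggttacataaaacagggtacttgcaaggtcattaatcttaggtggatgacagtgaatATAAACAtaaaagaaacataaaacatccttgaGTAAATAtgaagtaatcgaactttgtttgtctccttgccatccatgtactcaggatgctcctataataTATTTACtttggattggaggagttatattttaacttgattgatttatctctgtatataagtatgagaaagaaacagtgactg
All 4 promoters held at least 1 of these motifs, and no motif match overlapped another. The first match lay 183 bases before the start in UGT2B15, 178 in UGT2B10, 176 in UGT2B7 and 182 in UGT2B11. A TATTTAC, the reverse complement of GTAAATA, began 83 bases before the start of UGT2B15 and 82 bases before the starts of UGT2B10 and UGT2B11. Of 35116 RefSeq promoters cut to the same length, 2.98% held GTAAACA, 2.39% GTAAATA and 3.77% ATAAACA, and 8.69% held any of them. The promoters are related copies, so the matches are not independent of each other. UGT2B10 and UGT2B11 were identical in 90.2% of aligned positions, and UGT2B15 and UGT2B7 in 61.3%, the lowest of the 6 pairs. How reads were placed between such copies was not tested. A match describes the letters and not a site of binding.

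FOXA1 peaks of the cluster were most numerous in MDA-MB-453, in both replicates. MDA-MB-453 had 92 and 81 FOXA1 peaks in the windows, SKBR3 58 and 58, and T47D 53 and 50 (replicates 1 and 2). The MDA-MB-453 lists were also the longest for FOXA1, with 188029 and 153024 peaks. Per 10000 peaks of the list MDA-MB-453 had 4.89 and 5.29 FOXA1 peaks in the windows, no more than SKBR3 with 5.39 and 4.97. For TLE3, MDA-MB-453 had 31 and 18 peaks and T47D 14 and 24. SKBR3 had 8 TLE3 peaks in replicate 1 and 22 in replicate 2. As sites found in both replicates, FOXA1 had 71 for MDA-MB-453, 46 for SKBR3 and 44 for T47D, and TLE3 had 18 in MDA-MB-453, 14 in T47D and 0 in SKBR3.

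**Figure D1:**
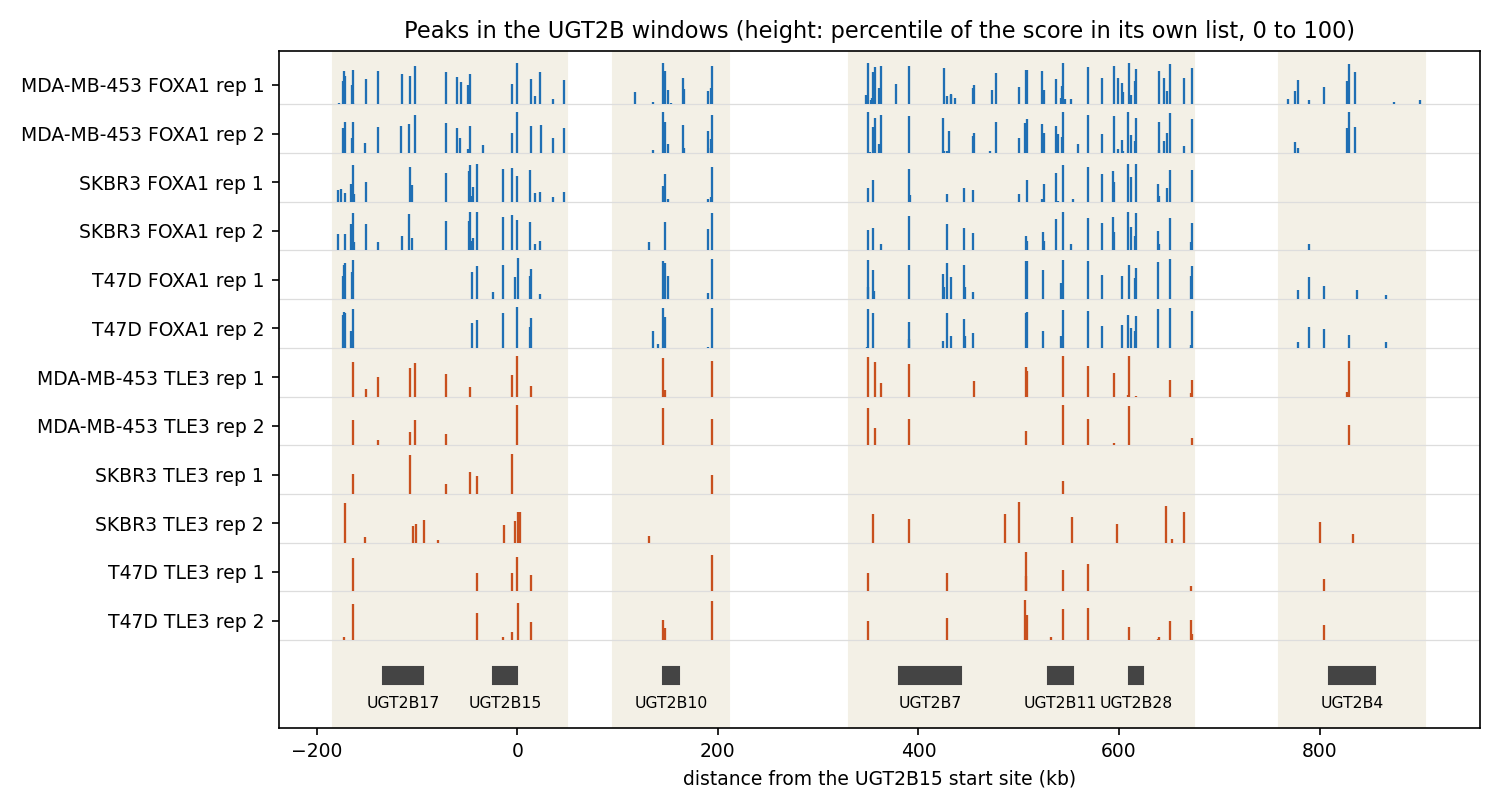
Peaks of the 12 libraries (rows) against distance from the UGT2B15 start site in kb, with the height of each line showing the percentile of its score in its own list, the windows shaded and the gene bodies drawn as boxes. T47D rows are empty over the UGT2B17 body, and SKBR3 FOXA1 has 1 peak, of replicate 2, in the UGT2B4 window.

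Each member's window held a FOXA1 site in MDA-MB-453 (7 of 7, where 95.1% of all protein-coding genes have one) and in T47D (7 of 7, against 95% of all genes). In SKBR3, 6 of 7 had a FOXA1 site (89.8% of all genes), the exception being UGT2B4. These shares are near the background and are no result about the UGT2B genes. For TLE3, 7 of 7 genes had a site in MDA-MB-453 (55.3% of all genes) and 7 of 7 in T47D (74.7%). In SKBR3, 0 of 7 had a TLE3 site in both replicates (35.3%), 4 of 7 had a peak of replicate 1 (57.3%) and 7 of 7 a peak of replicate 2 (96.5%). Windows shared between neighbours let 1 site count for 2 genes. The median UGT2B gene had 12 FOXA1 sites (MDA-MB-453), 9 (SKBR3) and 6 (T47D), beside 7, 4 and 6 for all protein-coding genes. It had 3 TLE3 sites in MDA-MB-453 and 2 in T47D, beside 1 and 2.

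The androgen-conjugating gene UGT2B15 (chr4:68646597-68670652, minus strand) carried one of the strongest peaks of the cluster on its start. FOXA1 peaks covered the start in all 6 FOXA1 libraries, at percentiles 99.2 and 99.2 in MDA-MB-453, 98.7 and 97.9 in T47D, and 61.8 and 74.4 in SKBR3. The SKBR3 values were thus below those of the other lines within their own lists, without overlap. The SKBR3 lists were the shortest FOXA1 lists, so this order of percentiles shows no change in binding. TLE3 peaks covered the start at percentiles 98.6 and 97.4 in MDA-MB-453 and 83.1 and 90.2 in T47D. No TLE3 peak of SKBR3 replicate 1 lay there, and the nearest one was centred 4998 bp away, inside the gene. The nearest peak of SKBR3 replicate 2 was centred 935 bp away and did not cover the start (percentile 74.5).

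The site inside UGT2B15 (chr4:68665006-68665965) had another order of lines by percentile in their own lists. Its SKBR3 TLE3 replicate 1 peak was the highest of that library in the windows, at percentile 95.6. FOXA1 stood there at percentiles 80.4 and 86.0 in SKBR3 and 49.5 and 47.2 in MDA-MB-453. MDA-MB-453 had a TLE3 peak there in replicate 1 alone, at percentile 52.4. T47D had TLE3 at percentiles 43.6 and 20.3 and no FOXA1 peak, and this was the 1 of its 14 TLE3 sites without a T47D FOXA1 site. Across its window UGT2B15 had 11 FOXA1 sites for MDA-MB-453, 12 for SKBR3 and 6 for T47D. The 3 highest FOXA1 sites of SKBR3 included 2 between UGT2B17 and UGT2B15, at chr4:68630119-68631033 (mean percentile 91.8) and chr4:68623527-68624219 (91.0).

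UGT2B17 (chr4:68537173-68576322), the main testosterone-conjugating enzyme, had no peak over either end of its body in any library, and its peaks lay inside the gene and on both sides. Its window held 15 FOXA1 and 5 TLE3 sites in MDA-MB-453 and 12 FOXA1 sites and 4 TLE3 replicate 1 peaks in SKBR3. T47D had 6 FOXA1 sites and 1 TLE3 site. The body held 1 FOXA1 site that MDA-MB-453 and SKBR3 shared, chr4:68562661-68563581, with FOXA1 at percentiles 69.1 and 69.7 in MDA-MB-453 and 84.9 and 88.7 in SKBR3. TLE3 stood there at percentiles 68.2 and 32.2 in MDA-MB-453 and 94.9 in SKBR3 replicate 1. Another site of the body, chr4:68568057-68569022, had FOXA1 at percentiles 93.1 and 92.5 and TLE3 at 80.4 and 61.1 in MDA-MB-453, and in SKBR3 a single peak, of TLE3 replicate 2 (45.9).

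T47D had no peak of either factor over a stretch of 118 kb that holds the whole UGT2B17 body (chr4:68507362-68625353). In that stretch MDA-MB-453 had 10 and 10 FOXA1 peaks and 6 and 4 TLE3 peaks. SKBR3 had 7 and 10 FOXA1 peaks, and 3 and 5 TLE3 peaks. All 4 T47D libraries had 0. Gaps at least as long as the T47D gap here made up 1.50% and 1.34% of all gaps between neighbouring peaks in the T47D FOXA1 lists and 21.9% and 8.85% in the T47D TLE3 lists. UGT2B17 is known to be missing from some human genomes through a common deletion, and copy number was not measured in these data. This stretch was singled out after its values were seen.

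UGT2B10 (chr4:68815994-68832023, plus strand), known for nicotine glucuronidation, had strong peaks on its start in MDA-MB-453 and T47D. FOXA1 stood at percentiles 98.6 and 99.0 in MDA-MB-453 and 92.5 and 95.5 in T47D, while SKBR3 had a peak in replicate 1 alone, at 38.5. TLE3 covered the start in MDA-MB-453 at percentiles 93.7 and 90.0. In T47D a TLE3 peak at percentile 49.1, of replicate 2, ended short of the start, and replicate 1 had none. SKBR3 had no TLE3 peak within 10 kb of the start in either replicate. The window held 9 FOXA1 sites for MDA-MB-453, 3 for SKBR3 and 4 for T47D.

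UGT2B11 (chr4:69199951-69224984, minus strand), a less characterised member, had TLE3 peaks of MDA-MB-453, T47D and SKBR3 replicate 1 at or beside its start. FOXA1 covered the start at percentiles 99.6 and 99.7 for MDA-MB-453, 89.2 and 92.4 for SKBR3 and 93.8 and 91.1 for T47D. TLE3 covered it at percentiles 99.1 and 97.1 in MDA-MB-453 and 51.9 and 74.5 in T47D. In SKBR3 replicate 1 the TLE3 peak was centred 197.5 bp from the start at percentile 31.3, without covering it, and the nearest peak of replicate 2 was 8715 bp away. In MDA-MB-453 this was the highest TLE3 site of the cluster (mean percentile 98.1). The start also lies inside the long non-coding RNA gene LOC105377267.

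UGT2B28 (chr4:69280475-69295050), a steroid-conjugating gene, carried the highest FOXA1 site of the cluster in MDA-MB-453 on its lower end in chromosome order. Its FOXA1 percentiles there were 99.9 and 99.8 for MDA-MB-453, 91.6 and 91.9 for SKBR3 and 82.2 and 80.2 for T47D. TLE3 stood there at 97.5 and 95.2 in MDA-MB-453. In T47D it was found in replicate 2 alone, at 32.3, and no SKBR3 TLE3 peak lay within 10 kb. UGT2B28 had the most FOXA1 sites per length of window, 14.0 per 100 kb for MDA-MB-453, 10.5 for SKBR3 and 8.73 for T47D.

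UGT2B7 (chr4:69051375-69112987, plus strand), which conjugates estrogens and opioids, had no site of both replicates over its annotated start at position 69096474, which lies inside the annotated gene, in SKBR3 or T47D. In MDA-MB-453 a FOXA1 peak of replicate 1 at percentile 87.1 covered it. Replicate 2 had 2 FOXA1 peaks that overlapped this peak but ended short of the start. They stood at percentile 84.3 and, centred 179.5 bp from the start, at 4.71. T47D replicate 1 covered it at percentile 28.7. No TLE3 peak was centred within 2 kb of it in any library, and the nearest were the T47D peaks, 2230.5 and 2270 bp away. Its window held the FOXA1 site with a mean percentile of 99.8 in MDA-MB-453, among its 3 highest, over the pseudogene UGT2B27P (chr4:69019708-69021042).

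UGT2B4 (chr4:69480165-69526014), best known for bile acids, had the fewest sites over the groups together. There were 5 FOXA1 sites in MDA-MB-453, 4 in T47D and 0 in SKBR3, where replicate 1 had 0 peaks and replicate 2 had 1. TLE3 had 1 site in MDA-MB-453 and 1 in T47D, at different places. The MDA-MB-453 site lay inside the gene (chr4:69499885-69500777), with FOXA1 at percentiles 97.8 and 98.1 and TLE3 at 86.3 and 49.7. The T47D site lay 4.89 kb outside the lower end, with FOXA1 at 32.2 and 46.1 and TLE3 at 29.7 and 35.6.

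**Figure D2:**
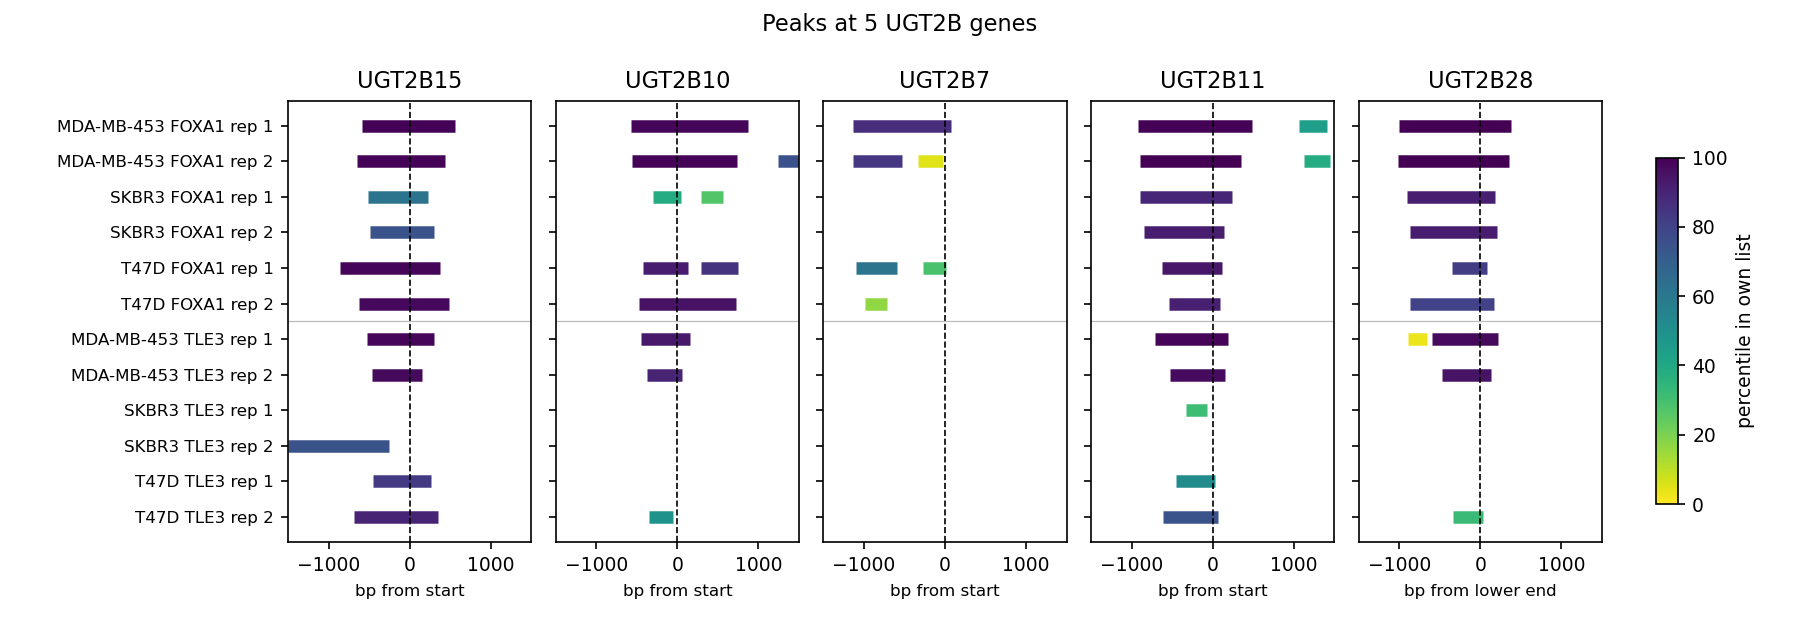
Peaks of the 12 libraries as bars around the start of UGT2B15, UGT2B10, UGT2B7 and UGT2B11 (upstream to the left) and of the lower end of UGT2B28, whose strand the gene table does not give, coloured by percentile in the own list. The bars of MDA-MB-453 are the darkest at UGT2B11 and UGT2B28 (FOXA1 at 99.6 to 99.9), and the UGT2B7 panel has no TLE3 bar.

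**Figure D3:**
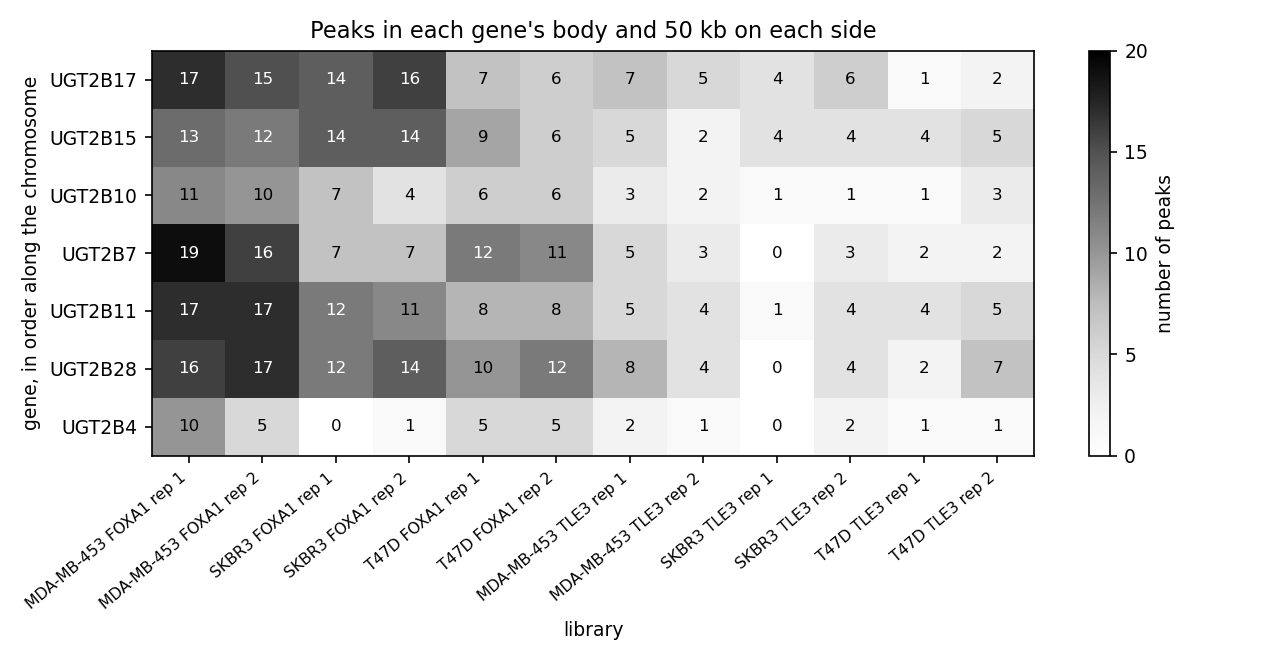
Number of peaks in the body and 50 kb on each side of each UGT2B gene (rows) in each library (columns), from 0 in white to 20 in black. UGT2B7 in MDA-MB-453 FOXA1 replicate 1 has the most, 19, and UGT2B4 has 0 or 1 in SKBR3 FOXA1.

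As a share of the list, the cluster was highest in the TLE3 libraries of MDA-MB-453. Window peaks per 10000 peaks of the list were 7.26 and 7.93 for TLE3 in MDA-MB-453, 4.64 and 3.91 in T47D, and 3.78 and 2.33 in SKBR3, so both MDA-MB-453 values lay above all others. For FOXA1 they were 4.89 and 5.29 for MDA-MB-453, 5.39 and 4.97 for SKBR3 and 3.60 and 3.36 for T47D, where both values lay below all others. Averaged over the factors, MDA-MB-453 was 2.35 per 10000 above the other lines, from 0.765 for FOXA1 and 3.93 for TLE3. The exact two-sided permutation of line labels within factors gave p = 0.0222 and p = 0.0667 after Benjamini-Hochberg adjustment over the 3 lines, which misses 0.05. For SKBR3 the difference was -0.992 (exact permutation p = 0.356, adjusted 0.356), an average of opposite values, 0.894 for FOXA1 and -2.88 for TLE3. For T47D the difference was -1.35 (exact permutation p = 0.196, adjusted 0.293), and it was -0.177 with equally long lists and -0.373 without the UGT2B17 window. The smallest p these tests allow is 0.00444.

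Without SKBR3 TLE3 replicate 2 the differences were 2.12 for MDA-MB-453, -0.629 for SKBR3 and -1.85 for T47D (exact permutation, adjusted p = 0.09, 0.813 and 0.09). The MDA-MB-453 difference passed 0.05 under 7 of 21 alternative settings, among them narrower windows, and kept its sign in all 21.

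The difference in share between the factors was smaller than the spread of the libraries. The mean was 4.98 ± 2.17 per 10000 for TLE3 and 4.58 ± 0.880 for FOXA1 (SD, n = 6 each), a difference of 0.392 with p = 0.611 by exact two-sided permutation within lines (smallest p 0.00926). Without SKBR3 TLE3 replicate 2 it was 0.634 (exact permutation p = 0.306), and the sign turned under 3 alternatives. Within lines the group means were 7.59 ± 0.472 for TLE3 and 5.09 ± 0.283 for FOXA1 in MDA-MB-453, 3.06 ± 1.03 and 5.18 ± 0.299 in SKBR3, and 4.27 ± 0.517 and 3.48 ± 0.172 in T47D (SD, n = 2 each).

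**Figure D4:**
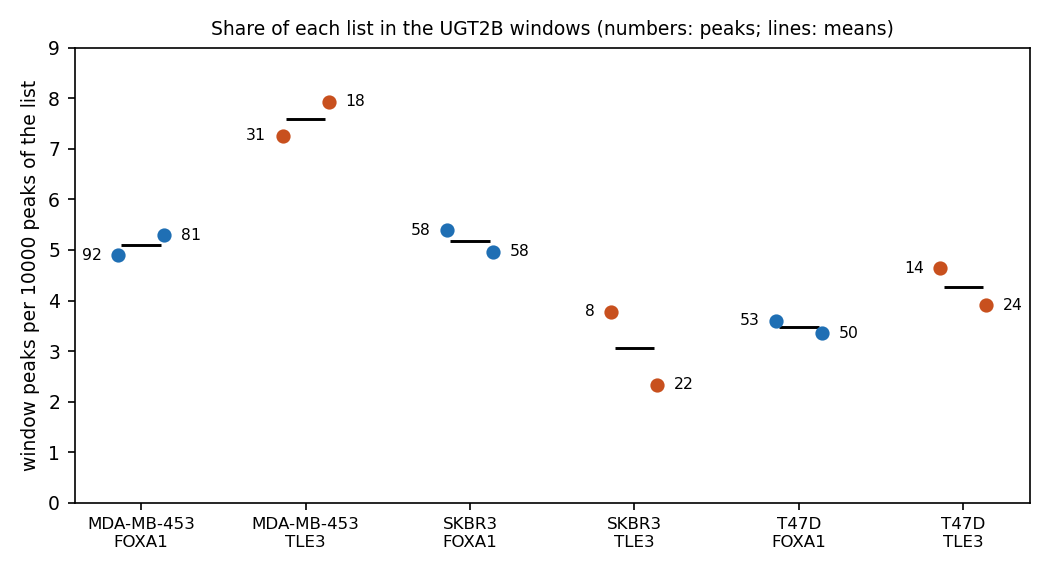
Window peaks per 10000 peaks of the list for each of the 12 libraries (points, replicate 1 left and replicate 2 right, with the number of window peaks beside them and the group mean as a line). The 2 MDA-MB-453 TLE3 libraries, at 7.26 and 7.93, lie above the other 10, and T47D FOXA1 lies below the other FOXA1 libraries.

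FOXA1 sites of the cluster were partly shared between the lines. Merged over lines there were 86 regions with a FOXA1 site. All 3 lines shared 22, MDA-MB-453 alone had 27, SKBR3 alone 6 and T47D alone 6. MDA-MB-453 shared 12 more with SKBR3 and 8 more with T47D, and SKBR3 and T47D shared 5. TLE3, with SKBR3 replicate 1 alone, had 25 regions, of which 3 were in all lines, 8 in MDA-MB-453 only, 1 in SKBR3 only and 4 in T47D only. Of the 22 FOXA1 regions common to the lines, 11 held a TLE3 site of any line and 11 held none. Of the 27 in MDA-MB-453 alone, 4 held its TLE3, beside 15.8% of all its FOXA1 sites. On chromosomes 1 to 22 and X MDA-MB-453 also had the most FOXA1 sites, 135315 beside 90520 for SKBR3 and 112670 for T47D. Sharing between lines was not counted over all sites, so these counts are no result about the UGT2B genes.

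The 3 TLE3 regions of all lines were the UGT2B11 start, described above, and a region on the far side of each of 2 other members. The one at chr4:68506125-68507464 lies 30378.5 bp outside UGT2B17, at the edge of the T47D gap. TLE3 stood there at percentiles 84.0 and 61.3 in MDA-MB-453, 80.8 and 87.6 in T47D and 48.4 in SKBR3 replicate 1. The other, chr4:68864033-68865814, lies 32900.5 bp beyond UGT2B10 in the pseudogene LOC101930041, with TLE3 at 86.7 and 64.3, 87.5 and 94.7, and 46.5 in the same order. FOXA1 was present at both in all 6 FOXA1 libraries, at percentiles from 74.5 to 97.3. The highest TLE3 site of T47D, at chr4:69176899-69177824 (mean percentile 95.3), lay in a region centred 22559 bp outside UGT2B11 and had no TLE3 peak in SKBR3 replicate 1.

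TLE3 sites of the cluster lay on FOXA1 sites of the same line about as often as over all sites of that line, with SKBR3 replicate 2 low in both. Of the TLE3 sites of MDA-MB-453, 18 of 18 lay on a FOXA1 site (99.3% over all sites of the line), and of those of T47D 13 of 14 (92.9%, against 87.0% over all). In SKBR3 8 of 8 replicate 1 peaks did (93.5% over all) and 6 of 22 replicate 2 peaks (27.3%, against 21.7%). Conversely 18 of 71 FOXA1 sites held TLE3 in MDA-MB-453 (25.4%, against 15.8% over all its FOXA1 sites), 13 of 44 in T47D (29.5%, against 21.9%) and 8 of 46 in SKBR3 with replicate 1 (17.4%, against 20.9%). These shares are descriptions without a test.

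Each TLE3 library was set against the FOXA1 sites of its own line and of the other lines. Own-line sites held 100% and 100% of the window peaks in MDA-MB-453, and those of the other lines 61.3% and 63.9% on average. In T47D the values were 92.9% and 91.7% against 78.6% and 77.1%. In SKBR3 they were 100% against 68.8% for replicate 1 and 27.3% against 31.8% for replicate 2, the 1 library of 6 that went the other way. The averages hide a difference between the other lines. FOXA1 sites of MDA-MB-453, the line with the most, held 85.7% and 83.3% of the T47D peaks. They held 87.5% and 40.9% of the SKBR3 peaks (replicates 1 and 2). The number of FOXA1 sites of each line was not adjusted for. The mean difference was 21.7 percentage points, and the exact two-sided sign-flip permutation test over 6 libraries gave p = 0.0625 (smallest p 0.031). Without SKBR3 TLE3 replicate 2 it was 27.0 points, positive in 5 of 5 libraries, with p = 0.0625 by the same exact test, the smallest p that 5 libraries allow. That library was set apart partly by its low share on SKBR3 FOXA1 sites, which this test also scores. The 5 of 5 is therefore no independent support. TLE3 libraries of 1 line were set against the same FOXA1 sites, so they are not independent in this test.

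FOXA1 peaks of the cluster at TLE3 sites had higher scores within their lists than the other FOXA1 peaks of the cluster. The same contrast over all FOXA1 peaks is not given here, so it is not shown to be particular to the UGT2B genes. In MDA-MB-453 the mean percentile was 90.3 and 87.2 at TLE3 sites (18 peaks in each replicate) and 45.0 and 41.7 elsewhere (74 and 63 peaks). In T47D it was 83.2 and 77.7 at TLE3 sites (13 peaks each) and 54.9 and 50.8 elsewhere (40 and 37 peaks). With TLE3 sites taken from replicate 1 alone, SKBR3 had 84.8 and 88.3 at TLE3 sites (8 peaks each) and 40.7 and 44.4 elsewhere (50 peaks each). All 6 FOXA1 libraries thus had the higher mean at these TLE3 sites. With TLE3 replicate 2 in place of replicate 1, the SKBR3 libraries went the other way, with means of 45.1 and 47.4 at TLE3 peaks (7 peaks each) that differed from those elsewhere (51 peaks each) by -1.91 and -3.50 points.

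Over the 4 libraries of MDA-MB-453 and T47D, the ones with sites in both TLE3 replicates, the difference was 36.5 percentile points with an exact two-sided sign-flip p = 0.125, the smallest p that 4 libraries allow. Without SKBR3 TLE3 replicate 2 all 6 libraries entered and the difference was 39.0 points with p = 0.031 by the same exact test, again the smallest possible. FOXA1 libraries of 1 line were set against the same TLE3 sites, so they are not independent in this test and the p-value is too small. The difference was 23.5 points without SKBR3 TLE3 replicate 1 (exact p = 0.125). It was 19.8 with the upper 50% of each list and 2.58 with equally long lists (exact p = 0.125 each), which keep only peaks of high percentile.

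**Figure D5:**
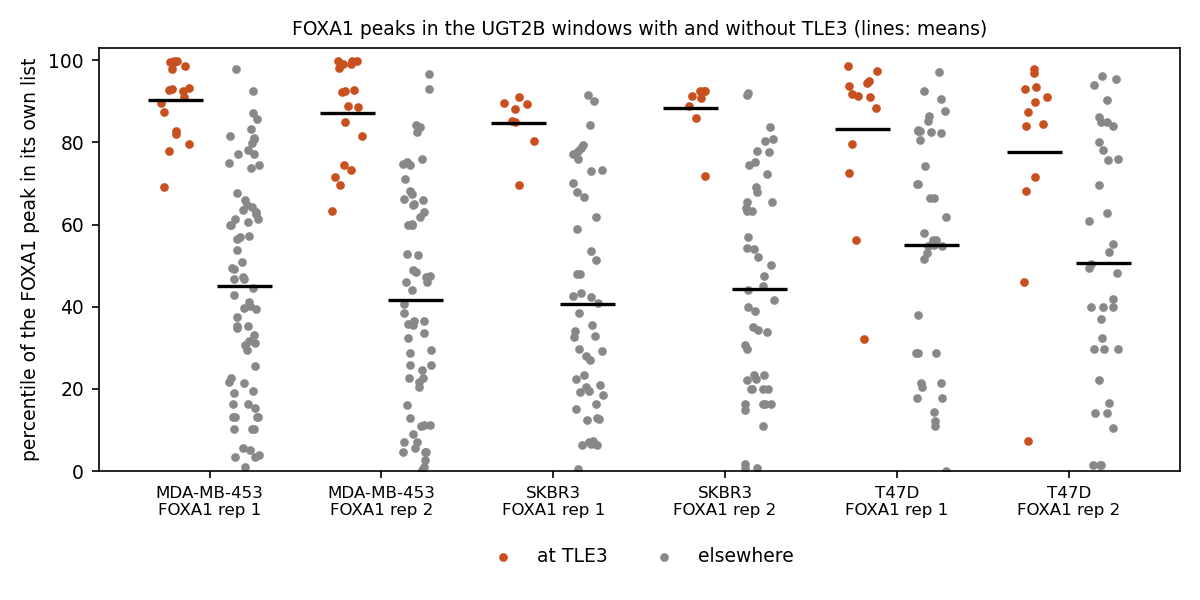
Percentile of each FOXA1 peak of the UGT2B windows in its own list, for peaks at a TLE3 site of the same line (SKBR3 by replicate 1) and elsewhere, in the 6 FOXA1 libraries, with black lines at the means. The means are 77.7 to 90.3 at TLE3 sites and 40.7 to 54.9 elsewhere.

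Other genes of glucuronidation and steroid handling were read in the same way, as counts without a test. Of 15 other UGT genes, 15 had a FOXA1 site for MDA-MB-453, 15 for SKBR3 and 8 for T47D, beside 95.1%, 89.8% and 95% of all protein-coding genes. A TLE3 site was found for 4 of the 15 in MDA-MB-453 and 4 in T47D, beside 55.3% and 74.7% of all genes. The nested UGT1A genes share most of their windows, so these counts are not independent. UGT1A8 had 14 FOXA1 sites for MDA-MB-453, 11 for SKBR3 and 1 for T47D and no TLE3 site in any line in both replicates. UGT3A2 had 10, 4 and 5 FOXA1 sites, and UGT1A10 had 12, 10 and 1. For cofactor supply, 3 of 3 genes had FOXA1 sites in every line, which is near those shares of all genes, with UGDH, the enzyme that makes UDP-glucuronic acid, at 10 FOXA1 and 2 TLE3 sites in MDA-MB-453.

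Of the sulfation genes, which conjugate the same steroids with sulfate, SULT2B1 had 14, 12 and 18 FOXA1 sites in MDA-MB-453, SKBR3 and T47D, and SULT2A1 had no site in any group. The steroid sulfatase gene STS had 34, 15 and 19 FOXA1 sites and 11 TLE3 sites in MDA-MB-453. The exporter ABCC3, which carries glucuronides out of cells, had 24, 17 and 17 FOXA1 sites and 7 TLE3 sites in MDA-MB-453 and 9 in T47D. Among 20 genes of steroid synthesis and interconversion, 19 had a FOXA1 site for MDA-MB-453, 18 for SKBR3 and 20 for T47D, again near the shares of all genes (95.1%, 89.8% and 95%). HSD17B2, which oxidises estradiol and testosterone, had the most sites of them, with 22 FOXA1 and 8 TLE3 sites in T47D. SRD5A3 followed with 21 FOXA1 sites in SKBR3. The hydroxylase gene CYP1B1 had 10, 8 and 8 FOXA1 sites in the order MDA-MB-453, SKBR3 and T47D. The median of the 4 hydroxylation genes was 2.5, 5 and 1 in that order, beside 7, 4 and 6 for all protein-coding genes. SULT2B1, STS, ABCC3 and CYP1B1 are named because they had the most sites of their lists, so they do not stand for the other members.

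The protein-coding genes off the cluster whose counts of sites over the 6 groups were nearest to those of the median UGT2B gene were DYRK2, UBE2U, SSBP1, COPS2 and STRN. Their Euclidean distances in log2(sites + 1) over 6 values ran from 0.36 to 0.44. DYRK2 had 12, 9 and 8 FOXA1 sites in MDA-MB-453, SKBR3 and T47D, and 3, 0 and 2 TLE3 sites.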

How the data were processed

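ChIP-seq peak lists of 12 libraries were used. The submitters' processing notes name MACS2, SAMtools, BWA 0.7.5a and Trim Galore, with hg38 as the build. Settings of the caller and its controls were not given in the sources used here. Every library has its own list, deposited with 5 unnamed columns, and the score in it is the authors' own value per peak. Starts were converted to count from 1, and chromosomes 1 to 22 and X were kept. Genes and promoters came from RefSeq tables of GRCh38.p14. The gene table gives no strand, so ends stand for starts where no promoter matched. Overlap means at least 1 bp. Samples were grouped by their titles. The share of each list in the windows was tested by exact permutation of labels, and values per library by exact sign flips, with a threshold of 0.05, in Python 3.11.15 with numpy 2.4.6, pandas 2.3.3 and Biopython 1.88. The rank and site scripts were tested on simulated data. Alternatives covered the list (upper 50% by score, equal lists of 21149 peaks, no division by length), the window, the overlap, the replicates and each library left out. The text names the UGT2B genes, the 3 highest sites of a group, sites of all lines (for FOXA1, as a count), the nearest peaks of each gene, the list genes with the most sites and those without any, and the 5 most alike genes. A listed gene is not reported here. Members and lists were chosen with earlier results of these data known.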

Additional observations from a re-analysis of the deposited data

Results flagged for a closer look

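The share of peaks in the UGT2B windows moved in opposite directions between the factors in different lines. TLE3 minus FOXA1, in window peaks per 10000 peaks of the list, was 2.50 in MDA-MB-453, where both TLE3 libraries lay above both FOXA1 libraries. In T47D it was 0.798 with the same order. In SKBR3 it was -2.12, with both TLE3 libraries below both FOXA1 libraries. The difference between the lines was not tested. SKBR3 TLE3 replicate 1 alone had 3.78 per 10000, which is also below both SKBR3 FOXA1 libraries.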

How the results depend on the processing

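The difference between factors (0.392) turned to -0.0409 with the upper 50% of each list, to -0.630 with equally long lists and to -45.8 peaks without division by list length (exact permutation p = 0.00926), the last because FOXA1 lists are longer. The cause of the other changes named here was not tested unless said. The MDA-MB-453 difference passed 0.05 (adjusted exact permutation p) with the upper 50% (3.10, p = 0.0133), equal lists (2.84, p = 0.0467), gene bodies alone (0.716, p = 0.0133), 10 kb (1.31, p = 0.0133) and 100 kb on each side (2.78, p = 0.04) and undivided counts (19.6, p = 0.04). Leaving out 1 library gave 2.12 to 2.52, passing only without SKBR3 FOXA1 replicate 1 (2.52, exact permutation p = 0.04). With equal lists the SKBR3 difference was -2.66 (adjusted exact permutation p = 0.0467). Leaving out 1 library gave 0.15 to 0.634 between factors, -1.35 to -0.629 for SKBR3 and -1.85 to -0.921 for T47D. With sites of either replicate the own-line difference was 19.1 points (exact p = 0.031, 18.3 to 27.0 with 1 library left out) and the FOXA1 percentile difference 36.1 (exact p = 0.031). With 1 library left out the latter was 23.5 to 42.4, lowest without SKBR3 TLE3 replicate 1, and 39.0 without replicate 2. In both of these sign-flip tests the libraries of 1 line were set against the same sites and are not independent.

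Fewer peaks and narrower windows lowered the counts of sites by construction. In the order upper 50%, equal lists, bodies and 10 kb they were 40, 13, 19 and 30 for MDA-MB-453 FOXA1, 24, 9, 11 and 16 for SKBR3 FOXA1, 29, 10, 11 and 18 for T47D FOXA1 and 6, 7, 3 and 5 for T47D TLE3. MDA-MB-453 TLE3 had 10, 5 and 9 with the upper 50%, bodies and 10 kb. Sites of either replicate numbered 31, 30 and 24 for TLE3 in MDA-MB-453, SKBR3 and T47D. With 1 replicate left out TLE3 had 18 to 31, 8 to 22 and 14 to 24. Genes with a TLE3 site were 4 in MDA-MB-453 by bodies, 3 in T47D by bodies and 4 by 10 kb, and 7 in SKBR3 by either replicate (4 to 7 with 1 left out). Without the UGT2B17 window, chosen after seeing the data, no call changed (MDA-MB-453 1.76 and T47D -0.373, adjusted exact permutation p = 0.0533 and 0.658).

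With a replicate block the values were the same by construction, 0.392, 2.35, -0.992 and -1.35, with exact p = 0.719, and 0.111, 0.432 and 0.370 adjusted. Deviations of same-numbered FOXA1 and TLE3 libraries correlated over 19974 genes at r = -0.0291, 0.0180 and -0.0984 in MDA-MB-453, SKBR3 and T47D, so the numbers were not taken as pairs. Depth is unknown, so a missing peak may be a peak not detectable at the depth of its library, and 2 libraries a group limit every comparison of lines.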
